A study of Mus musculus with 9 samples.

Results

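The 10 genes described here are members of the interleukin-1 (IL-1) family, their soluble inhibitors, a receptor subunit and the core of the inflammasome. They were found by matching the symbols *Il1f9* (also written *Il36g*), *Il1a*, *Il1b*, *Il1rn*, *Il18*, *Il18bp*, *Il1rap*, *Nlrp3*, *Casp1* and *Gsdmd* to the Ensembl identifiers of the RNAseq table, which held 54432 genes, and all 10 were present. RNAseq was measured in RAW264.7 macrophages, a mouse macrophage-like cell line transformed with Abelson leukemia virus, in 9 libraries. Of these, 3 came from untreated control cells, 3 from cells given VLDL-sized emulsion particles (VLDLsep in the labels) and 3 from cells given larger, chylomicron-sized (CHYL-sized) emulsion particles (CHYLsep), each at 1 mM for 6 hours. The particles were made of sunflower oil with caseinate as emulsifier, and because the controls were untreated, the effects of the oil, the caseinate and the particles themselves cannot be told apart. All groups were the same cell line without a genetic change, and the samples of each condition in an experiment were pooled before sequencing.

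IL-1 family cytokines are alarm signals of innate immunity. IL-1α, IL-1β and IL-36γ, encoded by *Il1a*, *Il1b* and *Il1f9*, bind receptors that share the accessory chain IL1RAP and signal through MYD88 to NF-κB and MAP kinases, while IL-18 acts through a receptor of the same family. IL-1β and IL-18 are made as inactive precursors: in macrophages, a first signal raises transcription of *Il1b* and *Nlrp3*, and a second signal assembles NLRP3, the adaptor ASC and caspase-1 into the inflammasome, which cleaves the precursors and gasdermin D, the protein that opens pores in the plasma membrane. The counts measure transcripts, so cleavage, pore formation and secretion were not seen here.

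Promoter sequences are shown for *Il1f9*, the member with the largest fitted change, for *Il1a* and *Il1b*, the classical IL-1 genes on the same chromosome, and for *Casp1*, which rose with both particles. RefSeq promoters of the mouse assembly GRCm38.p6, which run from 250 bases before to 50 bases after a RefSeq start site, were matched for 9 of the 10 members with 12 promoters in all. These sites can lie away from the gene starts given below, as for *Il18*, *Il18bp* and some windows of *Il1rn* and *Nlrp3*. The short motifs were searched on both strands: AP-1 (TGANTCA), the core of the antioxidant response element (TGACNNNGC) and a loose kappa-B pattern (GGG and CC separated by any 5 bases). Capitals mark the matches, and overlapping matches run into each other.
Il1f9 (chr2:24186226-24186525, plus strand): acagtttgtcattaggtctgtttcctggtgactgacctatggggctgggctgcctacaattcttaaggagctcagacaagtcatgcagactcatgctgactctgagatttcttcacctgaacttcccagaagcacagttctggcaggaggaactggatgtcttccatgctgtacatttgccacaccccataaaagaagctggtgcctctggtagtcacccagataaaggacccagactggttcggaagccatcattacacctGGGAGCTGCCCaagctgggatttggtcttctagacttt
Il1a (chr2:129309923-129310222, minus strand): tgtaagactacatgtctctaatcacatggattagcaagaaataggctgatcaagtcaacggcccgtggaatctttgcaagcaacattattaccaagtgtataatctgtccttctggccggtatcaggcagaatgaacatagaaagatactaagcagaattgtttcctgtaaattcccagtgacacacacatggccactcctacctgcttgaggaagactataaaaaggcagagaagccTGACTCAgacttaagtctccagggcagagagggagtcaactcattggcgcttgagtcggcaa
Il1b (chr2:129371090-129371389, minus strand): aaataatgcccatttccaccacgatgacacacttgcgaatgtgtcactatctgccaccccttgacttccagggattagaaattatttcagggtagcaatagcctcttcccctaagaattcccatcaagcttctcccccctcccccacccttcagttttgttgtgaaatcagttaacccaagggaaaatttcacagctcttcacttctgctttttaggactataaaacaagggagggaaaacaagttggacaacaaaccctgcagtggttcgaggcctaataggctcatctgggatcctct
Casp1 (chr9:5298267-5298566, plus strand): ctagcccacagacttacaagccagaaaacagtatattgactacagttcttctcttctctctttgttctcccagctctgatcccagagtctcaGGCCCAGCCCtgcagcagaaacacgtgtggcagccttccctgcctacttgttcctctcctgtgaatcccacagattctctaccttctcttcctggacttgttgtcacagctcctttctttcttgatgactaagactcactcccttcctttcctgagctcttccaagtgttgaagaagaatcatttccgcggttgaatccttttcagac

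The AP-1 letters stood in the *Il1a* window and in 1 window of *Il1rn*, and among all 32851 promoters 7.81% held them. The antioxidant response element core was found in 1 of the *Nlrp3* windows, and it occurred in 12.4% of all promoters. The kappa-B pattern lay in windows of *Il1f9*, *Il1rn*, *Il1rap*, *Nlrp3* and *Casp1*, but 50.8% of all promoters held it. None of these letters occurred in the windows of *Il1b*, *Il18* or *Il18bp*. A match is a description of the sequence and says nothing of binding by a factor.

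Counts were nearly equally deep, with 22393893 to 22856792 estimated counts per library. Levels are given as cpm, counts scaled to a common library total (mean ± SD, n = 3), and changes as log2 fold changes from limma-voom with TMM (trimmed mean of M-values) normalization and an adjusted p (Benjamini-Hochberg over 12637 genes), called at an adjusted p under 0.05. TMM factors were 1.02 to 1.05 in the control libraries and 0.96 to 0.99 in the particle libraries, so a fitted change lies slightly above the change in cpm. Macrophage identity was checked with 10 markers, all of which were counted. Their summed level was 7153 to 7357 cpm in the controls, 5955 to 6269 cpm after VLDL-sized and 6167 to 6486 cpm after CHYL-sized emulsion particles. The markers did not all move alike. *Cd14*, *Fcgr1* and *Ptprc* were called lower with both particles, and *Itgam*, *Lyz2* and *Spi1* lower with VLDL-sized particles alone. *Cd68* was called higher with VLDL-sized particles (0.17), and *Adgre1*, *Csf1r* and *Mrc1* were not called. The part of these differences in the results below was not tested. T cell, B cell and mast cell markers had at most 3 counts in any library. The summed level of 3 neutrophil markers was 1.55 to 2.12 cpm in control, 1.92 to 2.21 cpm after VLDL-sized and 2.09 to 2.12 cpm after CHYL-sized particles; *S100a9* was at 0 throughout, and *Ly6g* had 0 counts in every control, 5 to 9 after VLDL-sized and 4 to 8 after CHYL-sized particles. The 3 keratinocyte markers summed to 0.84 to 1.86 cpm over all libraries, with *Krt5* and *Krt14* at 0, the 3 fibroblast markers to 1.53 to 2.51 cpm and the 3 endothelial markers to 5.60 to 10.0 cpm, with overlapping groups in each list. The part of these markers in the results was not tested. Replicate 3 of every group stood apart from replicates 1 and 2, and the values that change without it are given beside the results. In bulk libraries fewer cells of a kind and less RNA per cell cannot be told apart.

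In control cells the members spanned a wide range of levels. Per kilobase of median coding transcript length, *Gsdmd* (80.3 cpm per kb) and *Casp1* (60.2 cpm per kb) were highest, and their 3 control libraries did not overlap. *Il1rn* (15.4) and *Nlrp3* (14.0) came next with overlapping libraries, then *Il18* (6.43) and *Il1rap* (4.52), and *Il18bp* was low at 0.668 cpm per kb. *Il1f9* (0.0357) and *Il1b* (0.0323) were near the limit of detection, and *Il1a* was at 0. The order among *Gsdmd*, *Casp1*, *Il1rn* and *Nlrp3* depends on which transcript is expressed. With the shortest coding transcript in place of the median length, *Gsdmd* was at 174, *Nlrp3* at 81.6, *Il1rn* at 65.2 and *Casp1* at 60.2 cpm per kb. With the longest, *Casp1* (60.2) was above *Gsdmd* (40.2), *Nlrp3* (13.7) and *Il1rn* (8.45).

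**Figure D1:**
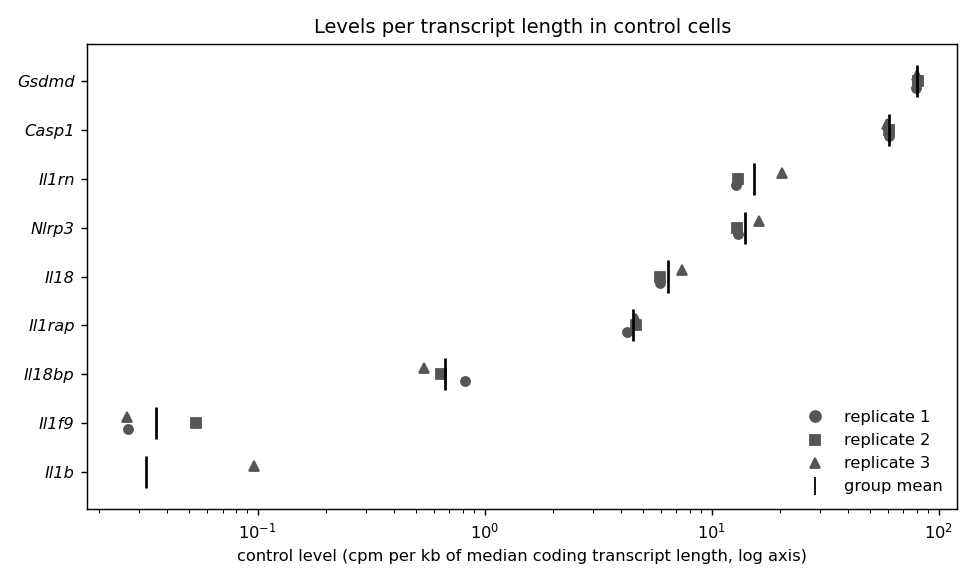
Level of each gene in control cells, in cpm per kb of median coding transcript length on a log axis, with 1 symbol per control library and a bar at the mean. *Gsdmd* and *Casp1* lie at 80.3 and 60.2; *Il1a* and the *Il1b* libraries at 0 cannot be drawn on this axis.

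Of the 10 members, 8 had enough counts to be tested. *Il1f9* was among these through its particle libraries alone, so its place in the counts of calls and the medians below is a description only. After VLDL-sized emulsion particles 3 members rose (*Il1f9*, *Il18bp* and *Casp1*) and 1 fell (*Nlrp3*). Over all genes tested, 35.6% were called in this comparison, 17.8% upward and 17.9% downward. With CHYL-sized emulsion particles 2 members rose (*Il1f9* and *Casp1*) and 0 fell, where 25.7% of all genes were called, 12.7% upward and 13% downward. The median log2 fold change of the members tested was 0.05 after VLDL-sized and -0.06 after CHYL-sized emulsion particles, with medians over all genes of 0.00 and 0.00. With so few members, a share of called genes cannot be read against that background beyond the genes themselves. The 2 comparisons share the control libraries, and the model has no term for the replicate number.

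**Figure D2:**
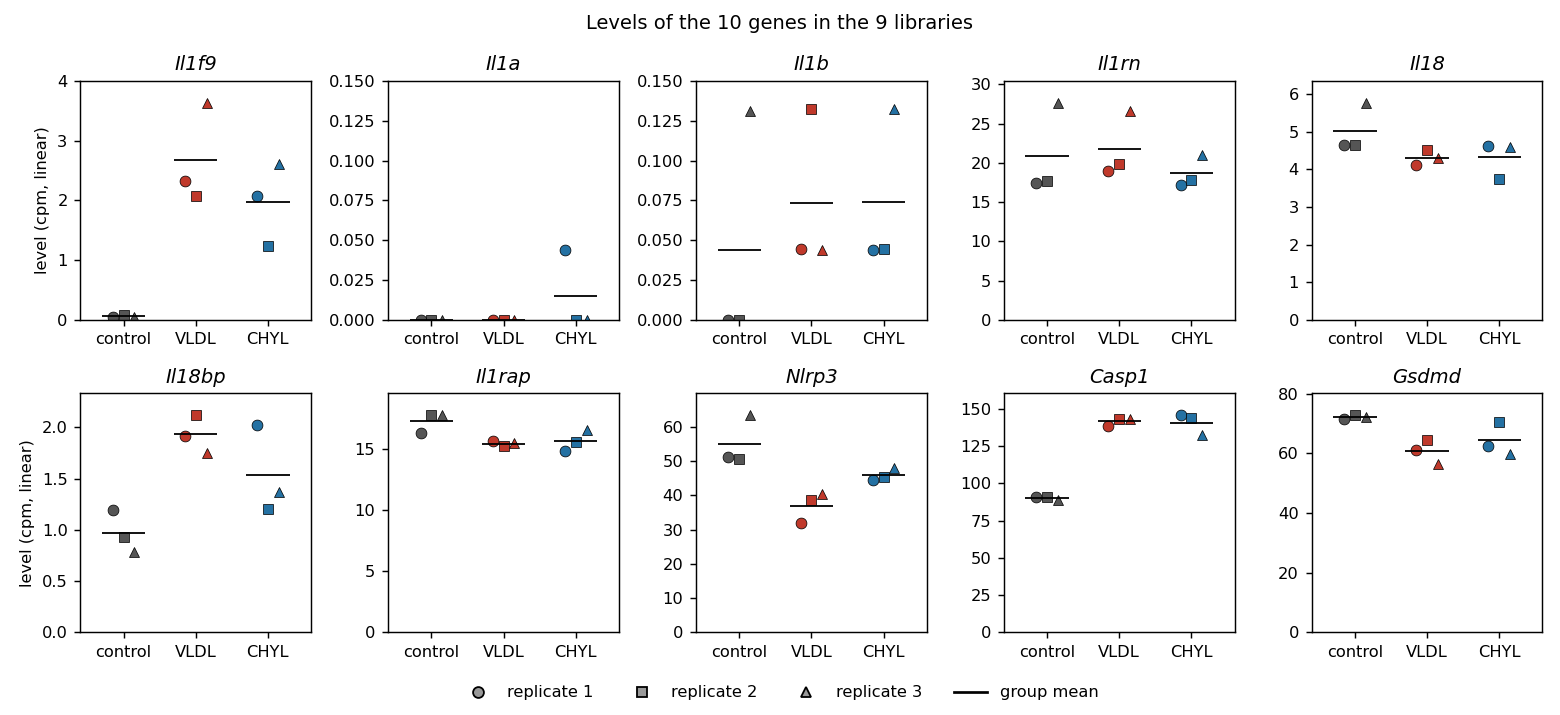
Level of each of the 10 genes in cpm on a linear axis, with 1 symbol per library (shape gives the replicate number) and a line at the group mean; each panel has its own scale. *Il1f9* and *Casp1* were higher in every particle library than in every control library, whereas *Il1a* and *Il1b* stayed at or below 3 counts.

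Among the cytokines, *Il1f9* (ENSMUSG00000044103, chr2:24186476-24193568, plus strand) stood out. Its product IL-36γ is best known from epithelia and is also made by stimulated macrophages. The control libraries held 1, 2 and 1 counts (0.0442, 0.0884 and 0.0438 cpm in replicates 1, 2 and 3). After VLDL-sized emulsion particles the libraries held 52, 47 and 83 counts (2.32, 2.08 and 3.64 cpm), and after CHYL-sized emulsion particles 47, 28 and 59 counts (2.07, 1.25 and 2.61 cpm). Every particle library was above every control library, and the particle groups overlapped. The ratio of the summed counts, each divided by the summed library totals, was 45.7 for VLDL-sized particles (182 against 4 counts, exact 95% interval 17.5 to 169). For CHYL-sized particles it was 33.7 (134 against 4 counts, 12.8 to 125). The intervals cover counting error only. Because no control library exceeded 3 counts, the fold is given as a lower limit, with the controls set to the floor of 3 counts per library. The lower limits were 20.3 and 14.9 for the group mean, and 15.7 and 9.42 for the lowest particle library. The fitted log2 fold changes were 5.16 (SE 0.62, adjusted p = 0.000113) and 4.69 (SE 0.63, adjusted p = 0.00038). They depend on the prior count, and the gene passed the filter on low counts through the particle libraries alone, so that its call is a description and not a further support of the difference in counts. Even after treatment its level stayed low, at 2.68 ± 0.84 and 1.97 ± 0.69 cpm.

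The classical IL-1 genes were nearly absent. *Il1b* (ENSMUSG00000027398, chr2:129364570-129371139, minus strand) had 0, 0 and 3 counts in control, 1, 3 and 1 counts after VLDL-sized and 1, 1 and 3 counts after CHYL-sized emulsion particles. *Il1a* (chr2:129299610-129309972, minus strand) had a single count in all 9 libraries, in a CHYL-sized library. No library of either gene exceeded 3 counts, which corresponds to 0.131 to 0.134 cpm, so that neither was tested and no fold is given. A change of *Il1a* or *Il1b* was not detectable at this depth.

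*Il18* (chr9:50554827-50581840, plus strand) is, unlike *Il1b*, transcribed in resting macrophages. Its level was 5.02 ± 0.65 cpm in the controls, with libraries at 4.64, 4.64 and 5.78 cpm. It was 4.30 ± 0.20 cpm after VLDL-sized emulsion particles (4.11, 4.51 and 4.30 cpm) and 4.32 ± 0.51 cpm after CHYL-sized emulsion particles (4.62, 3.74 and 4.60 cpm). All 6 particle libraries lay below the lowest control library in cpm. With TMM scaling the groups overlapped, and 1 of 3 same-numbered differences was above 0 for each particle. After TMM normalization the log2 fold changes were -0.12 (95% interval -0.44 to 0.20, adjusted p = 0.558) and -0.13 (-0.45 to 0.18, adjusted p = 0.548), and neither was called.

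Of the soluble inhibitors, *Il18bp*, which encodes the decoy that binds IL-18, rose with VLDL-sized emulsion particles. The gene lies at chr7:102014885-102018690 on the minus strand. It was low, at 1.19, 0.929 and 0.788 cpm in control (18 to 27 counts), 1.92, 2.12 and 1.75 cpm after VLDL-sized and 2.03, 1.20 and 1.37 cpm after CHYL-sized emulsion particles. No particle library overlapped the controls, though CHYL-sized replicate 2 was nearly level with the highest control. The log2 fold change was 1.09 (SE 0.24, adjusted p = 0.00559), or 2.12-fold, for VLDL-sized particles and 0.71 (SE 0.25, adjusted p = 0.0632) for CHYL-sized particles. The latter ran from 0.50 to 0.87 with libraries left out, and 2 of 15 alternatives called it, among them that without CHYL-sized replicate 2 (0.87, adjusted p = 0.0426); over the alternatives the adjusted p reached 0.202. *Numa1*, on the opposite strand with 5095 to 5954 counts, shares 2.64% of the exon bases of *Il18bp*, and whether the counting used the strand is not given in the sources used here.

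*Il1rn* encodes the IL-1 receptor antagonist, which occupies the IL-1 receptor without signalling, and lies on the same chromosome as *Il1f9* (chr2:24336853-24351494, plus strand). It was the most abundant of the cytokine and inhibitor genes, at 17.4, 17.7 and 27.7 cpm in the controls, 18.9, 19.8 and 26.6 cpm after VLDL-sized and 17.2, 17.8 and 21.0 cpm after CHYL-sized emulsion particles. In every group replicate 3 was highest, and the groups overlapped. The log2 fold changes were 0.17 (SE 0.19, adjusted p = 0.528) and -0.05 (SE 0.20, adjusted p = 0.879). With libraries left out the VLDL-sized value ran from 0.01 to 0.40, and 1 of 16 alternatives called it, that without replicate 3 of all groups (0.24, adjusted p = 0.0224); the highest adjusted p was 0.975. Within replicate numbers VLDL-sized libraries exceeded control by 0.23, 0.25 and 0.03 on the log2 scale. The sign of the CHYL-sized value turned positive in 3 of 16 alternatives.

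*Il1rap*, the receptor subunit shared by the IL-1, IL-33 and IL-36 receptors (chr16:26581704-26730117, plus strand), was expressed at 17.3 ± 0.86 cpm in the controls, 15.4 ± 0.22 cpm after VLDL-sized and 15.6 ± 0.87 cpm after CHYL-sized emulsion particles. The fitted log2 fold changes were -0.07 (95% interval -0.24 to 0.11) and -0.06 (-0.24 to 0.11), with adjusted p = 0.557 and 0.606.

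Among the inflammasome genes, the sensor *Nlrp3* and the protease *Casp1* moved in opposite directions with VLDL-sized emulsion particles. *Nlrp3* (ENSMUSG00000032691, chr11:59541568-59566956, plus strand) was at 51.3, 50.7 and 63.5 cpm in control. It was at 31.9, 38.7 and 40.5 cpm after VLDL-sized and at 44.5, 45.3 and 47.9 cpm after CHYL-sized emulsion particles. In cpm the 3 groups did not overlap, with CHYL-sized between the others. After TMM scaling the CHYL-sized and control libraries overlapped, while the VLDL-sized libraries stayed below both. The fall with VLDL-sized particles was -0.48 on the log2 scale (SE 0.11, adjusted p = 0.00742), and the adjusted p stayed under 0.05 in all 16 alternatives, the highest being 0.0317. For CHYL-sized particles the value was -0.18 (SE 0.11, 95% interval -0.42 to 0.07, adjusted p = 0.276). Between same-numbered libraries, which may not be pairs, all 3 differences were below 0 for each particle.

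*Casp1* encodes caspase-1, which cleaves the precursors of IL-1β and IL-18 and gasdermin D. It lies at chr9:5298517-5307265 (ENSMUSG00000025888, plus strand) next to *Casp4*, 1562 bases away. Control libraries were tight at 90.6, 90.6 and 89.1 cpm, against 138, 143 and 143 cpm after VLDL-sized and 146, 144 and 133 cpm after CHYL-sized emulsion particles. The log2 fold changes were 0.75 (SE 0.05, adjusted p = 1.53e-06) and 0.72 (SE 0.05, adjusted p = 2.69e-06), or 1.68-fold and 1.65-fold. Over the 16 alternatives of each comparison the values ran from 0.65 to 0.77 and from 0.64 to 0.76, and each was called.

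*Gsdmd*, the pore former (chr15:75862327-75867408, plus strand), did not pass the test. Its level was 71.5, 72.8 and 72.0 cpm in the controls, 61.2, 64.5 and 56.3 cpm after VLDL-sized and 62.6, 70.6 and 59.7 cpm after CHYL-sized emulsion particles. The particle libraries lay below the controls in cpm, but after TMM scaling the CHYL-sized group overlapped the controls. CHYL-sized replicate 2 was then 0.04 above the control of the same number on the log2 scale. The log2 fold changes were -0.16 (SE 0.07, adjusted p = 0.0887) and -0.09 (SE 0.07, adjusted p = 0.364). With the replicate block the VLDL-sized value was -0.16 with an adjusted p of 0.025, and without TMM normalization it was -0.25 with an adjusted p of 0.017.

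**Figure D3:**
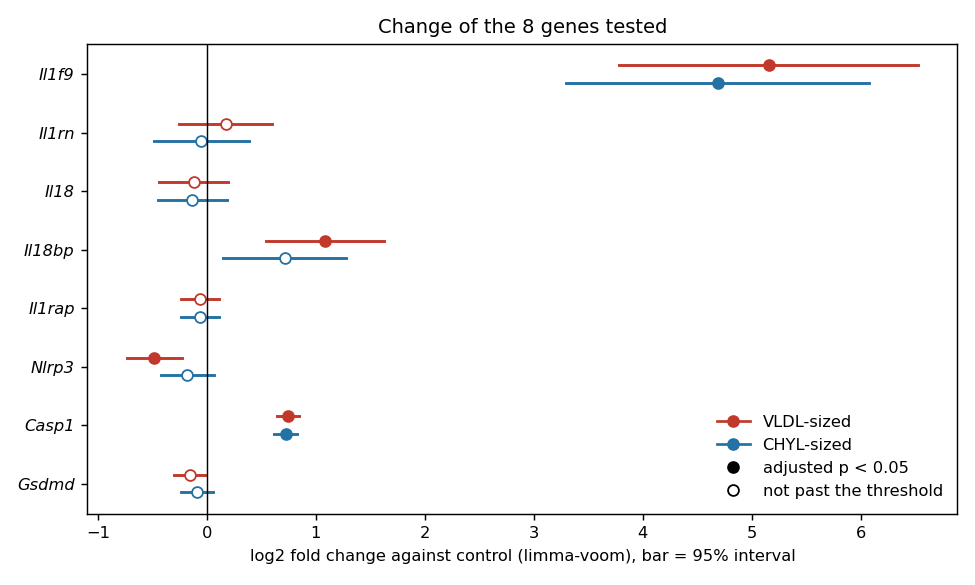
Fitted log2 fold change against control of the 8 genes tested, with 95% intervals, for VLDL-sized (red) and CHYL-sized (blue) emulsion particles; filled symbols have an adjusted p under 0.05. *Il1f9* lies at 5.16 and 4.69, values that rest on 1 or 2 counts per control library. *Casp1* lies at 0.75 and 0.72, while the *Nlrp3* value is filled for VLDL-sized particles alone.

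The particles were compared with each other for the 8 genes tested, at the same time and at the dose that the labels and the methods give for both; a figure legend of the study states a lower dose for the CHYL-sized particles, and which holds could not be settled here. By limma-voom 0 of the 8 members, and 0% of all 12637 genes, had an adjusted p under 0.05; 813 genes had an unadjusted p under 0.05, and edgeR called 0 genes and DESeq2 24. *Nlrp3* was lower after VLDL-sized than after CHYL-sized emulsion particles by -0.30 on the log2 scale (95% interval -0.56 to -0.05, unadjusted p = 0.0249, adjusted p = 0.698). It was lower in 3 of 3 same-numbered comparisons, but these numbers were not taken as pairs. Without replicate 3 of all groups the difference was -0.34 with an adjusted p of 0.0384. The difference for *Casp1* was 0.02 (-0.08 to 0.12), a narrow interval, and those for *Gsdmd* (-0.07, -0.22 to 0.08), *Il1rap* (0.00, -0.18 to 0.18) and *Il18* (0.01, -0.31 to 0.34) also included 0. For *Il1f9* the difference was 0.47 (-0.17 to 1.11), for *Il18bp* 0.37 (-0.12 to 0.86) and for *Il1rn* 0.22 (-0.21 to 0.66), intervals that leave room for a sizeable difference.

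A list of 56 further genes of the pathway was examined by role, of which 38 were tested. After VLDL-sized emulsion particles 6 rose and 10 fell, with a median log2 fold change of -0.02 over the list. After CHYL-sized emulsion particles 7 rose and 7 fell, with a median of 0.04. Called genes made up 42.1% and 36.8% of those tested, beside the 35.6% and 25.7% over all genes. The counts by role below stand beside the same all-gene shares: 17.8% up and 17.9% down with VLDL-sized, 12.7% up and 13% down with CHYL-sized particles. With so few genes per role they are not read beyond the genes themselves. In the CHYL-sized comparison the count fell to 7 without control replicate 2 and to 9 without control replicate 1, CHYL-sized replicate 1 or CHYL-sized replicate 2, and rose to 18 without replicate 3 of all groups. The calls over all genes moved the same way, from 3249 to 2379, 2320, 2535, 2597 and 4182, respectively.

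Of the 5 other ligands, *Il1f5*, *Il1f10* and *Il33* were at 0 in every library and *Il1f6* and *Il1f8* had at most 2 counts, so none was tested. Of the 7 receptors, 3 were tested and all 3 fell with VLDL-sized emulsion particles, where 17.9% of all genes were called downward. *Il18rap*, a chain of the IL-18 receptor, went from 42.9 ± 0.81 cpm in control to 26.7 ± 2.98 cpm after VLDL-sized and 33.3 ± 1.64 cpm after CHYL-sized particles, log2 fold changes of -0.59 and -0.29 (adjusted p = 0.000296 and 0.0228). *Il1rl1*, the receptor of IL-33, changed by -0.52 (adjusted p = 0.00687) and -0.34 (adjusted p = 0.0547), and *Sigirr*, an inhibitory receptor, by -0.39 and -0.42 (adjusted p = 0.0315 and 0.0314). *Il1r1*, which binds IL-1α and IL-1β, had 1 to 5 counts, and *Il1rl2* and *Il18r1*, the ligand-binding chains for IL-36 and IL-18, had at most 1 and 4 counts. *Il1r2*, also not tested, had 5 to 7 counts in control, 4 to 10 after VLDL-sized and 7 to 15 after CHYL-sized particles.

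In the signalling cascade 12 of 13 genes were tested, and 3 rose and 3 fell with each particle. *Irak3*, which encodes a brake on IL-1 and Toll-like receptor signalling, fell from 20.9 ± 0.51 to 11.9 ± 0.79 and 13.0 ± 1.52 cpm, log2 fold changes of -0.72 and -0.61 (adjusted p = 0.000144 and 0.000601). *Myd88*, the adaptor of the receptors, fell by 0.24 and by 0.21 on the log2 scale, and *Tab1* fell by 0.50 and by 0.32. The ubiquitin ligase *Traf6* rose by 0.42 and 0.29, *Tab3* by 0.44 and 0.34 and *Tollip*, an adaptor that restrains IRAK signalling, by 0.26 and 0.21. *Irak3* shares 5.22% of its exon bases with *Tmbim4* on the opposite strand, and *Myd88* shares 11.3% with *Acaa1a*.

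Among the sensors and their adaptor, 1 of 10 genes tested was called, in either comparison. It was *Pycard*, the gene of ASC, which joins NLRP3 to caspase-1. *Pycard* fell from 55.3, 55.6 and 50.1 cpm in control to 28.9, 31.4 and 32.0 cpm after VLDL-sized and 36.3, 36.1 and 33.8 cpm after CHYL-sized emulsion particles, log2 fold changes of -0.71 (SE 0.06, adjusted p = 1.35e-05) and -0.52 (SE 0.06, adjusted p = 0.000149). The 3 groups did not overlap. RAW264.7 cells are generally described as lacking ASC protein, and the counts are of the transcript alone. The other sensors tested, among them *Aim2*, *Nlrc4* and *Nlrp1b*, were not called. The largest uncalled changes were those of *Nlrp10* (-0.62 and -0.55, adjusted p = 0.0549 and 0.0990) and of *Naip1*, a gene of low counts (0.85 and 0.70, adjusted p = 0.0809 and 0.176).

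Of the regulators, 8 of 9 were tested. *P2rx7*, the ATP-gated channel whose opening triggers NLRP3, fell from 47.7 ± 3.31 to 27.7 ± 4.01 and 34.1 ± 3.10 cpm, log2 fold changes of -0.70 and -0.40 (adjusted p = 0.000429 and 0.0129). *Nek7*, the kinase that binds NLRP3, changed by -0.17 (adjusted p = 0.0177) and -0.13 (adjusted p = 0.0729). *Txnip*, a thioredoxin-binding protein, changed by -0.79 (adjusted p = 0.0312) and -0.66 (adjusted p = 0.0748), with replicate 3 lowest in every group. *Panx1*, a channel that releases ATP, rose from 21.2 ± 0.93 to 30.9 ± 2.52 and 29.5 ± 4.45 cpm (0.64 and 0.55 on the log2 scale, adjusted p = 0.00147 and 0.00561). *Pstpip1* was called with CHYL-sized particles (0.17, adjusted p = 0.0395), a call lost in 8 of 16 alternatives, and was at 0.00 with VLDL-sized particles.

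Downstream, 5 of 9 genes were tested and 2 rose with each particle. *Ninj1*, which encodes the protein that ruptures the plasma membrane late in lytic cell death, had the largest fitted change of the list in both comparisons. It was at 64.7, 65.2 and 78.1 cpm in the controls, 173, 143 and 157 cpm after VLDL-sized and 144, 159 and 155 cpm after CHYL-sized emulsion particles. Every particle library was well above every control, with log2 fold changes of 1.28 (SE 0.09, adjusted p = 4.56e-06) and 1.22 (SE 0.09, adjusted p = 1.02e-05). *Casp4*, the sensor of cytosolic lipopolysaccharide and the neighbour of *Casp1*, rose by 0.59 (adjusted p = 0.0188) and 0.51 (adjusted p = 0.0472). Its control replicate 3, at 24.6 cpm, lay among the particle libraries, and the calls were lost in 3 and 10 of 16 alternatives, respectively. *Casp8* and *Gsdme* were not called.

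**Figure D4:**
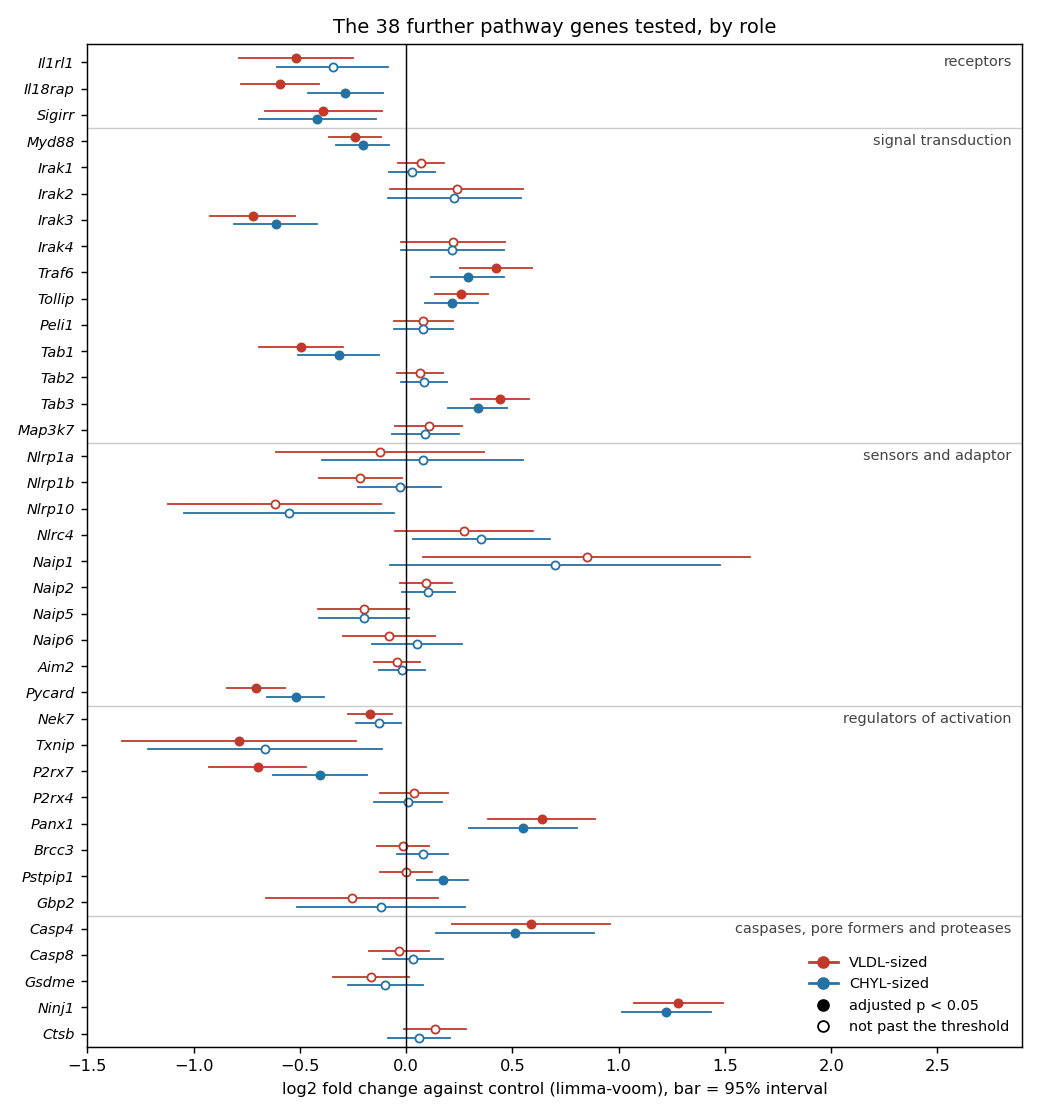
Fitted log2 fold change against control of the 38 further pathway genes tested, with 95% intervals, grouped by role, for VLDL-sized (red) and CHYL-sized (blue) emulsion particles; filled symbols have an adjusted p under 0.05. *Ninj1* is highest, at 1.28 and 1.22, and *Irak3* and *Pycard* are among the lowest.

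Libraries of the same replicate number were also compared, although whether a number pairs libraries cannot be told. For *Casp1*, *Pycard*, *Ninj1*, *Panx1*, *Irak3* and *P2rx7* all 3 same-numbered differences had the same sign with each particle. These genes were already called in both comparisons, with groups that did not overlap in cpm. The shared sign is therefore a description and no further support. For *Casp1* they were 0.71, 0.75 and 0.77 on the log2 scale with VLDL-sized and 0.77, 0.75 and 0.65 with CHYL-sized emulsion particles. *Gsdmd* was below control in 3 of 3 with VLDL-sized and 2 of 3 with CHYL-sized particles.

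**Figure D5:**
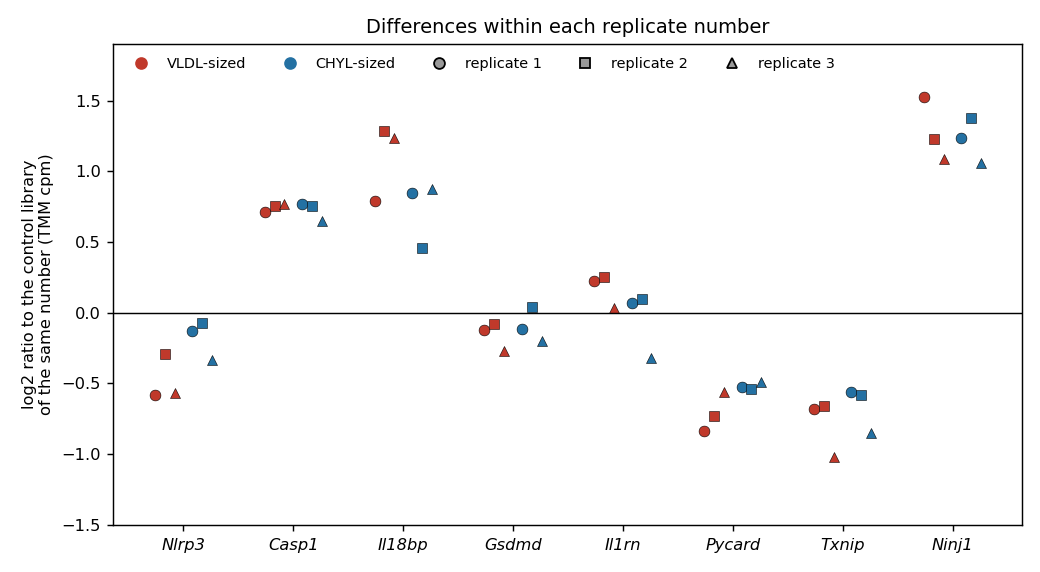
Log2 ratio of TMM-normalized cpm between each particle library and the control library of the same number, for 8 genes; colour gives the particle and shape the replicate number. All points for *Casp1*, *Il18bp* and *Ninj1* are above 0 and all for *Nlrp3*, *Pycard* and *Txnip* are below 0. Whether a number pairs libraries cannot be told.

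The genes outside these lists whose pattern over the 9 libraries was most like that of *Il1f9* were *Pcx*, *Rps6kc1*, *Procr*, *Ankrd50* and *B3galnt2*. Their Pearson correlations of log2 cpm with *Il1f9* were 0.998, 0.997, 0.996, 0.996 and 0.995 among 12591 genes compared. All 9 points share the split into control and particle groups. *Procr*, the endothelial protein C receptor, had the largest fitted log2 fold changes of the 5, at 3.03 and 2.66 with VLDL-sized and CHYL-sized particles. Those of the others were 1.18 and 1.07 (*Pcx*), 1.34 and 1.18 (*Rps6kc1*), 1.07 and 0.96 (*Ankrd50*) and 0.76 and 0.70 (*B3galnt2*). All were smaller than the 5.16 and 4.69 of *Il1f9*.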

How the data were processed

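The authors mapped the reads with Salmon 0.14.1 to GENCODE transcripts of GRCm38.p6, imported them per gene with tximport and deposited an estimated count per gene. Their methods include a correction for transcript length and depth, but 58.3% of the estimated counts above 10 were whole (tolerance 1e-6), and they were taken to be uncorrected. Positions and lengths of transcripts are those of the GENCODE release for GRCm38 that precedes the authors' one, and symbols matched 54346 of 54432 identifiers.

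The filter, normalization and model followed the methods, though their input was the corrected counts. The test covered the 12637 genes that exceeded 10 counts in 3 or more of the 9 libraries and used TMM factors (edgeR 4.0.16), voom weights and a limma 3.58.1 model of the 3 groups in R 4.3.3, with Benjamini-Hochberg adjustment. Estimated counts were rounded for edgeR's quasi-likelihood test and DESeq2 1.42.0. Alternatives were these tools, limma-trend (prior count 2), no normalization beyond depth, upper quartiles in place of TMM, all genes with a count, a filter of 50 counts, the compared groups alone, a replicate block, each library left out in turn and replicate 3 left out. The code of the fits was checked on simulated counts, with changes in the VLDL-sized libraries alone and no replicate effect. That check does not bear on the calls in these data. The p-values measure the spread between 3 pooled libraries per group, described as biological triplicates. Deviations from the group means correlated at r = 0.14, 0.13 and 0.29 between same-numbered VLDL-sized and control libraries (replicates 1, 2 and 3, all genes tested). Different-numbered ones ran from -0.22 to 0.12, the highest being control 1 with VLDL-sized 2. Beyond replicate 3 standing apart, whether a number pairs libraries cannot be told, and the labels give no meaning to a number. The main model therefore has no replicate term, and the replicate block is an alternative only.

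The members and the pathway and marker lists were chosen with earlier results of these data known. Named genes are the 10 members, pathway genes called against control in either comparison, *Pycard*, *Nek7* and *Txnip*, and the 5 genes most like *Il1f9*; *Il1b* had too few counts for the same. Pathway genes named without a call, genes at 0 or at the floor, and genes of overlapping positions are not covered by it and were picked with their values known.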

Additional observations from a re-analysis of the deposited data

How the results depend on the processing

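The calls of *Casp1* in both comparisons with control, and of *Nlrp3* and *Il18bp* with VLDL-sized emulsion particles, held under every alternative that gave a value; *Il18bp* had none under the filter of 50 counts. With the replicate block, 4 members in place of 2 were called with CHYL-sized particles, adding *Il18bp* (0.72, adjusted p = 0.027) and *Nlrp3* (-0.18, adjusted p = 0.044); over all genes 4949 in place of 3249 were called, and 6058 in place of 4500 with VLDL-sized particles. Same-numbered CHYL-sized and control libraries correlated at 0.12, 0.068 and 0.34, and VLDL-sized and CHYL-sized libraries at 0.029, 0.12 and 0.36. Some different-numbered libraries correlated more highly than same-numbered ones (control 1 with CHYL-sized 2 at 0.16, VLDL-sized 1 with CHYL-sized 2 at 0.18). These numbers were not taken as pairs, although the replicate 3 libraries deviated together. Between the particles the block called 147 genes, DESeq2 24 and limma without replicate 3 257, in place of 0; 1 pathway gene passed with the block (*Il18rap*, -0.30, adjusted p = 0.040) and 1 member without replicate 3 (*Nlrp3*). The cause was not tested. Leaving out libraries gave 7 to 18 pathway genes in the CHYL-sized comparison, in place of 14. With library size only, 1507 genes were higher and 3312 lower with VLDL-sized particles, in place of 2244 and 2256, and 1068 and 2514 with CHYL-sized particles, in place of 1610 and 1639.

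Signs turned for values near 0 that were not called. *Pstpip1* with VLDL-sized particles was 7.78e-04 with DESeq2 and -0.032 to 0.021 with libraries left out. *Il1rn* with CHYL-sized particles ran from -0.18 to 0.18. Between the particles, with libraries left out, *Il18* ran from -0.090 to 0.072, *Il1rap* from -0.047 to 0.050, *Casp1* from -0.025 to 0.044, *Sigirr* from -0.050 to 0.10, *Myd88* from -0.073 to 0.0051, *Txnip* from -0.37 to 0.15, *Casp4* from -0.024 to 0.14 and *Ninj1* from -0.011 to 0.13. Of 399 values per comparison, 17 calls were lost and 3 gained with VLDL-sized particles, 41 and 16 with CHYL-sized particles and 0 and 2 between the particles. These values are those of the members tested and of the pathway genes chosen by a call against control. Between the particles the main fit called no gene, so that no call could be lost. Depth limits *Il1a*, *Il1b* and the control level of *Il1f9*.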
